A study of Homo sapiens with 22 samples.

Results

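The transcripts examined here encode 10 glycolytic enzymes, HK2, GPI, ALDOA, TPI1, GAPDH, PGK1, PGAM1, ENO1, PKM and LDHA. For each gene the protein-coding transcript with the highest mean count over the chase times from 0 to 10 h was taken, which gave 10 of 227264 transcripts in the files and 10 of the 79513 that passed a mean of 1 CPM (counts scaled to library size). The row was chosen by this mean over both shRNAs, late chase times included, and not by a change over time or between cells. The 10 genes themselves were chosen with earlier results of these data known. The data came from BRIC-Seq, in which cells build bromouridine (BrU) into new RNA, are moved to medium without BrU, and the labelled RNA that remains is recovered with an antibody and sequenced. The cells were HEK293T, an immortalized line from human embryonic kidney. They carried a control hairpin (shControl) or hairpins against ZNF598 (shZNF598), a ubiquitin ligase that recognizes collided ribosomes. All cells received 150 µM BrU for 24 h. There were 22 libraries, with 2 per shRNA at chase times of 0, 2, 4, 6 and 10 h and 1 per shRNA at 24 h. The labels do not say how the hairpins were driven, whether the lines were clonal or whether the numbered libraries came from separate cultures, so the p-values measure only the spread between these libraries.

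Glycolysis splits glucose into pyruvate in the cytosol and yields ATP and NADH. Hexokinases phosphorylate glucose, the middle enzymes rearrange and cleave the sugar, and the enzymes from GAPDH onward recover ATP and end in pyruvate, which lactate dehydrogenase turns into lactate. Proliferating cell lines such as HEK293T rely on this route, and most of the mRNAs of the pathway are abundant and are commonly described as long-lived. Several of the enzymes have closely related copies elsewhere in the genome, either working isoenzymes or retrocopies, which are processed mRNAs that were inserted back into a chromosome.

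Total counts were 52352359 to 96963584 in the 20 libraries from 0 to 10 h. Levels are CPM after TMM scaling, which sets the bulk of each library to 1 level. A transcript that was lost as fast as the bulk therefore has a slope of 0, a positive slope means a slower loss than the bulk, and no value here is an absolute decay rate. In these bulk samples, fewer cells that express a gene and less RNA per cell cannot be told apart. The ZNF598 transcript itself had 4.05 to 8.55 CPM in the 10 shControl libraries from 0 to 10 h and 0.419 to 1.07 CPM in the 10 shZNF598 libraries, without overlap. The log2 difference averaged over 0 to 10 h came to -3.05 (SE 0.09), with an adjusted p of 1.17e-18 in edgeR. Of 6 genes known to be expressed in HEK293T cells, VIM, KRT8, KRT18, NEFL and LIN28B had at least 385 counts in every library from 0 to 10 h and NEFM had 41 to 158. Averaged over 0 to 10 h, NEFM differed by -0.78, KRT8 by -0.17 and VIM by 0.15 on the log2 scale, shZNF598 minus shControl, all called by edgeR. Of 6 markers of other cell types, HBB and CD3E had 0 counts, PTPRC and ALB at most 2, PECAM1 at most 7, and COL1A1 35 to 103. The shControl 0 h libraries stood apart, with a Pearson r of 0.957 across transcripts against 0.982 or above in the other pairs.

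Among the members, sequences are shown for PKM and HK2. PKM makes 2 pyruvate kinases from a choice between a pair of exons, one for the M2 form found in proliferating cells and one for the M1 form of muscle and brain. The PKM row with the highest count, ENST00000335181.10, holds the M2 exon (hg38, chr15:72202454-72202620, minus strand), and ENST00000319622.10 holds the M1 exon (chr15:72203022-72203188, minus strand). Both are coding exons of 167 nt, they are identical at 105 positions (62.9%), and capitals mark the positions that differ. They are shown because the isoform result compares the counts of these rows, which differ by this exon and by the extent of the first exon.
PKM2 exon: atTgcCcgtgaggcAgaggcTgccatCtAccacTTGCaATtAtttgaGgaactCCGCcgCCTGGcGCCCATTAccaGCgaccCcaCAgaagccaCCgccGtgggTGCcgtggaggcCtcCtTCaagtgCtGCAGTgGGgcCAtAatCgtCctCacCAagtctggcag
PKM1 exon: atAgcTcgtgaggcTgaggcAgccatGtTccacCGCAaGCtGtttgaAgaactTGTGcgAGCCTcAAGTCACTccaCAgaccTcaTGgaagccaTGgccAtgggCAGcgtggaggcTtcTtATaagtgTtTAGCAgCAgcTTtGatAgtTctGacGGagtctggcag

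HK2 was the 1 member that fell relative to the bulk. Its 3′UTR holds 5 copies of the pentamer ATTTA, a motif of AU-rich elements. A link between the motif and the fall was not tested. The closest pair lies at chr2:74891716-74891745 and chr2:74891734-74891763 (hg38, plus strand, in the 3′UTR), and capitals mark the pentamer.
HK2 first window: attttcattttaATTTAtatttgaaatttt
HK2 second window: atttgaaattttATTTAgttcttgagtaga

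At the end of labelling (0 h) the enzymes differed widely in level. Per kilobase of transcript in shControl cells, GAPDH, which oxidizes glyceraldehyde 3-phosphate, had the highest level with 244 ± 48.4 CPM per kb (mean ± SD, n = 2). ENO1, the enolase that forms phosphoenolpyruvate, followed with 192 ± 35.3 CPM per kb. TPI1, which interconverts the triose phosphates, and PKM had 121 ± 31.6 and 103 ± 9.4 CPM per kb, and these neighbours did not differ beyond their spread. ALDOA, the aldolase that cleaves fructose bisphosphate, had 93.6 ± 12.8 CPM per kb. LDHA, which makes lactate, had 68.6 ± 3.9 CPM per kb and PGAM1, a phosphoglycerate mutase, had 56.1 ± 10.7. PGK1, which makes the first ATP of the pathway, had 25.01 ± 2.8 CPM per kb and GPI, which isomerizes glucose 6-phosphate, had 12.5 ± 0.6. HK2, an inducible hexokinase on mitochondria, was lowest with 1.19 ± 0.27 CPM per kb. In shZNF598 cells the order at 0 h was the same, from 264 ± 2.2 CPM per kb for GAPDH to 1.06 ± 0.02 for HK2. These values divide by the full transcript length, although the study kept only reads with 1 locus. Rows that share sequence with other loci can therefore be understated. Of the 50-base windows, 90.7% were also found elsewhere in hg38 for PGAM1, 32.4% for TPI1 and 0.733% for ALDOA. The 10 transcripts together made up 0.149% and 0.187% of the scaled counts in shControl cells at 0 h, and 0.171% and 0.173% in shZNF598 cells.

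During the chase 9 of the 10 enzymes rose relative to the bulk in both cell lines and HK2 fell. The summed level of the 10 transcripts was 1678 ± 266 CPM at 0 h and 5080 ± 59.4 CPM at 10 h in shControl cells (mean ± SD, n = 2). In shZNF598 cells it was 1721 ± 10.0 CPM at 0 h and 4806 ± 345 CPM at 10 h. All 9 had higher values in both 10 h libraries than in both 0 h libraries of either shRNA, and HK2 had lower ones. Over all transcripts tested, 34.0% were higher at 10 h without overlap in both shRNAs and 43.9% were lower.

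**Figure D1:**
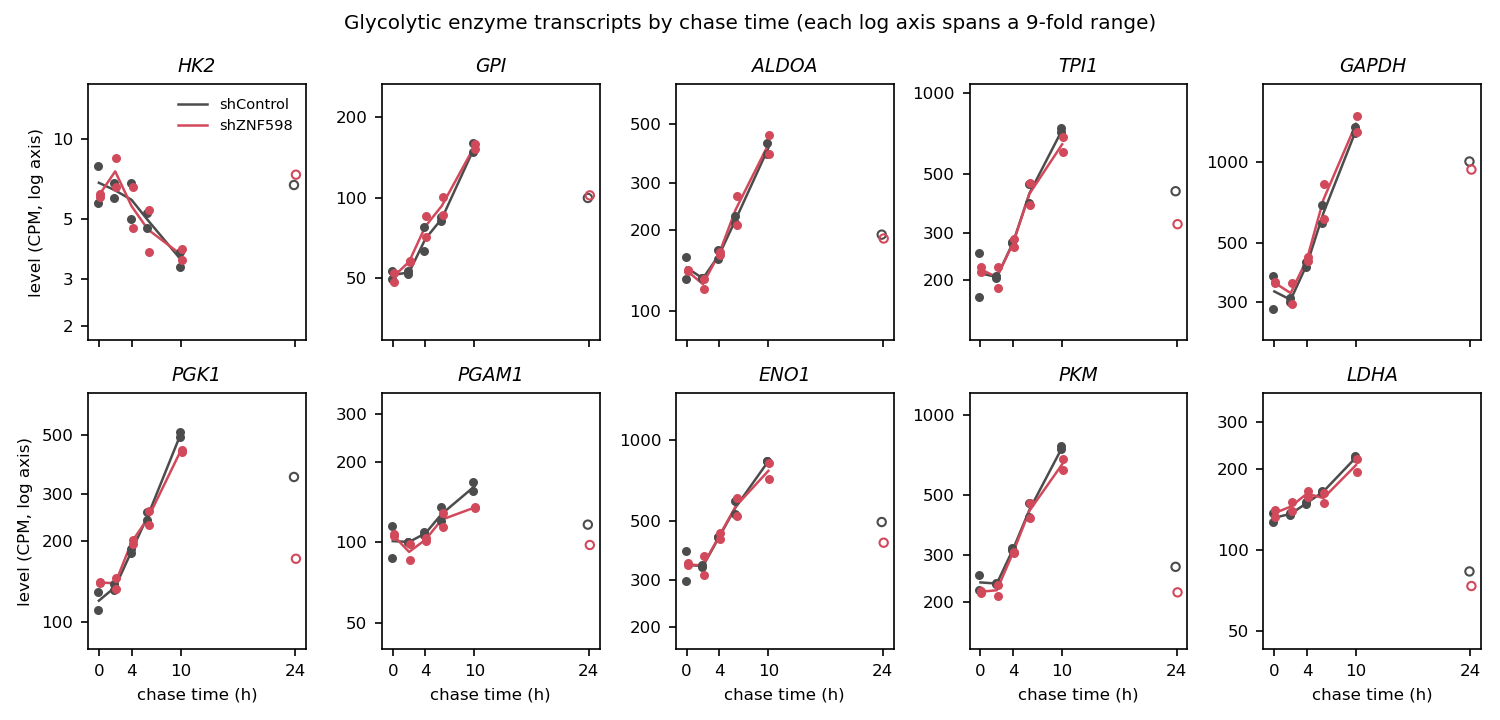
Level in CPM (log axis, each spanning the same 9-fold range) of the 10 transcripts against chase time in hours. Filled points are libraries, lines join the means of 2 libraries, and open points are the single 24 h libraries, which were scaled separately. GAPDH climbs from 283 to 375 CPM at 0 h to 1279.8 to 1487 CPM at 10 h over both shRNAs, PGAM1 and LDHA climb least, and HK2 declines.

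The sugar-handling enzymes split into a loss and 2 gains. HK2 (ENST00000290573.6, hg38 chromosome 2, 74834127 to 74893359, plus strand) had 7.94 and 5.77 CPM at 0 h and 3.78 and 3.32 CPM at 10 h in the shControl libraries. In the shZNF598 libraries it had 6.07 and 6.22 CPM at 0 h and 3.53 and 3.89 CPM at 10 h. Every 10 h library was therefore below every 0 h library, and the ratio of the means, 10 h over 0 h, was 0.519 and 0.603. GPI (ENST00000356487.11, chromosome 19, 34365196 to 34402413, plus strand) had 49.9 and 53.2 CPM at 0 h and 159.8 and 148 CPM at 10 h in shControl cells. Its shZNF598 values were 52.4 and 48.6 CPM at 0 h and 159 and 152 CPM at 10 h, so the rise was 2.98-fold and 3.08-fold. ALDOA (ENST00000563060.6, chromosome 16, 30064274 to 30070414, plus strand) had 131 and 159 CPM at 0 h and 424 and 386 CPM at 10 h in shControl cells. In shZNF598 cells ALDOA had 141 and 142 CPM at 0 h and 383 and 451 CPM at 10 h. The ALDOA mean rose 2.79-fold and 2.95-fold, close to GPI, although ALDOA was far higher than GPI per kilobase at 0 h.

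Among the triose enzymes, GAPDH and PGK1 had the largest rises of the 10 in both cell lines. TPI1 (ENST00000229270.8, chromosome 12, 6867119 to 6870948, plus strand) had 173 and 252 CPM at 0 h and 716 and 742 CPM at 10 h in shControl cells, a 3.43-fold rise. In shZNF598 cells TPI1 had 215 and 225 CPM at 0 h and 602 and 685 CPM at 10 h, a 2.92-fold rise. The 0 h shControl pair of TPI1 spans a wider range than the 4 libraries at 2 h, which lay between 187 and 224 CPM. GAPDH (ENST00000396861.5, chromosome 12, 6534534 to 6538359, plus strand) had 283 and 375 CPM at 0 h, 312 and 301 at 2 h, 426 and 407 at 4 h, 595 and 695 at 6 h, and 1352 and 1279.8 at 10 h in shControl cells. In shZNF598 cells GAPDH had 353 and 357 CPM at 0 h, 353 and 296 at 2 h, 429 and 441 at 4 h, 616 and 832 at 6 h, and 1291 and 1487 at 10 h. The level was flat until 2 h and climbed mostly after 4 h, and the libraries of the 2 shRNAs overlapped at each of these times except 4 h. The 10 h mean was 4.00-fold and 3.91-fold the 0 h mean. PGK1 (ENST00000373316.5, chromosome X, 78104248 to 78129295, plus strand) had 111 and 130 CPM at 0 h and 491 and 512 CPM at 10 h in shControl cells, a 4.17-fold rise. In shZNF598 cells PGK1 started at 140 and 142 CPM and reached 432 and 437 CPM, a 3.09-fold rise. The shRNAs did not overlap for PGK1 at either end, with shZNF598 cells higher at 0 h and lower at 10 h. The tests of these differences follow below.

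The last enzymes divided into steep and shallow. ENO1 (ENST00000234590.10, chromosome 1, 8861000 to 8878686, minus strand) had 298 and 386 CPM at 0 h and 833 and 832 CPM at 10 h in shControl cells. Its shZNF598 libraries had 341 and 347 CPM at 0 h and 715 and 818 CPM at 10 h, so ENO1 rose 2.43-fold and 2.23-fold. PKM, the last ATP-making step, had 221 and 252 CPM at 0 h and 763 and 747 CPM at 10 h in shControl cells. In shZNF598 cells PKM had 217 and 220.2 CPM at 0 h and 622 and 684 CPM at 10 h, and the rises were 3.19-fold and 2.99-fold. PKM was lower in both shZNF598 libraries than in both shControl libraries at 0 h and at 10 h. PGAM1 (ENST00000334828.6, chromosome 10, 97426191 to 97433444, plus strand) had 87.5 and 115 CPM at 0 h and 156 and 168 CPM at 10 h in shControl cells. The shZNF598 libraries of PGAM1 had 106 and 108 CPM at 0 h and 135.1 and 134.5 CPM at 10 h, and the rises of 1.60-fold and 1.26-fold were the smallest among the 9. LDHA (ENST00000379412.9, chromosome 11, 18396278 to 18407847, plus strand) had 127 and 137 CPM at 0 h and 224 and 219.6 CPM at 10 h in shControl cells. In shZNF598 cells LDHA went from 141 and 133 CPM to 219 and 196 CPM, and its rises were 1.68-fold and 1.51-fold.

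The single 24 h libraries did not continue these lines. Their levels were scaled with TMM factors from all 22 libraries and the levels from 0 to 10 h with factors from 20, so the scalings are not the same. LDHA was at 83.2 CPM with shControl and at 73.4 CPM with shZNF598, below all its 0 h libraries, while HK2 was back at 6.72 and 7.34 CPM. GAPDH stayed at 1005 and 938 CPM, above its 0 h libraries. PGK1 had 348 and 172 CPM, the widest gap between the shRNAs among the 10 at 24 h, and with 1 library each it has no replicate check. The 24 h libraries had 21220829 and 40157613 counts, fewer than any library from 0 to 10 h.

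A slope over 0 to 10 h was fitted for each shRNA on all transcripts together. In shControl cells 9 of 10 enzymes had a positive slope with an adjusted p below 0.05 and HK2 had a negative one, against 33.5% of all transcripts tested with a called positive and 40.8% with a called negative slope. In shZNF598 cells the same split of 9 and 1 was found, against 32.7% and 38.5% of all transcripts. The 10 slopes had a median of 0.161 log2 per hour with shControl and 0.168 with shZNF598, beside -0.018 and -0.014 over all transcripts tested. Under library totals in place of TMM the median slope of all transcripts moved to -0.088 and -0.077 log2 per hour, and the called slopes in shControl cells split into 13757 positive and 48895 negative, against 26651 and 32468 with TMM. PGAM1 and LDHA then had slopes of 0.0029 and 0.0063 in shControl cells, no longer called, and turned to -0.017 and -0.0065 in shZNF598 cells, whereas the other 7 rising enzymes stayed called.

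In order of slope in shControl cells, GAPDH came first with 0.215 log2 per hour (SE 0.021, edgeR quasi-likelihood test, adjusted p = 1.67e-08). PGK1 had 0.212 (SE 0.013, adjusted p = 1.49e-11 by the same edgeR test), TPI1 0.192 (SE 0.018), PKM 0.179 (SE 0.013), GPI 0.163 (SE 0.012), ALDOA 0.159 (SE 0.019) and ENO1 0.138 (SE 0.013). Neighbours in this order differed by less than their combined SE. LDHA followed at 0.076 log2 per hour (SE 0.009) and PGAM1 at 0.073 (SE 0.013). The gap of 0.062 between ENO1 and LDHA exceeded 2 times their combined SE of 0.016. HK2 stood alone with -0.096 log2 per hour (SE 0.022, adjusted p = 0.000475 by the edgeR test). The slopes of the 9 rising enzymes lay between percentiles 75.8 and 96.4 of 14999 genes with 1 row each, and HK2 lay at percentile 31.9, where the median gene had -0.036 log2 per hour.

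**Figure D2:**
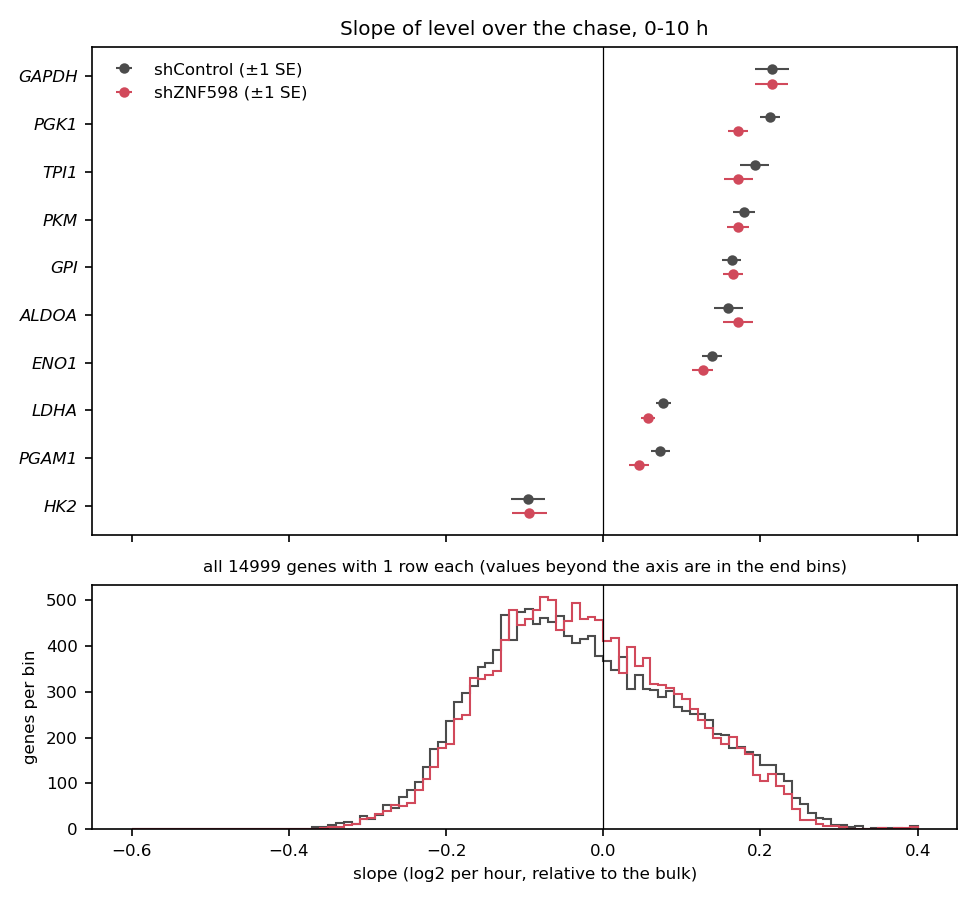
Slope of the level over 0 to 10 h in log2 per hour, with bars of 1 SE, for the 10 enzymes in shControl (grey) and shZNF598 (red), above the distribution of slopes over 14999 genes. The enzymes run from 0.215 for GAPDH to -0.096 for HK2 in shControl, with 9 to the right of 0 and HK2 to the left in both shRNAs.

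The slopes in shZNF598 cells followed nearly the same order. GAPDH had 0.214 log2 per hour (SE 0.021), TPI1, PKM, PGK1 and ALDOA lay together between 0.171 and 0.172, and GPI had 0.165 (SE 0.013). ENO1 had 0.126 (SE 0.013), LDHA 0.057 (SE 0.009), PGAM1 0.045 (SE 0.013, adjusted p = 0.00326, edgeR quasi-likelihood test) and HK2 -0.094 (SE 0.022). Leaving out each of the 20 libraries in turn kept 9 positive and 1 negative called slope in both shRNAs. Without either shControl 0 h library the GAPDH slope was 0.218 or 0.243 log2 per hour and the HK2 slope -0.089 or -0.112.

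The knockdown comparison asked whether less ZNF598 changed how these transcripts were lost. None of the 10 enzymes had a called difference in slope, against 0.116% of all transcripts tested. One of the 10 had an unadjusted p below 0.05, beside 5.53% of all transcripts, and DESeq2 also called 0. That one was PGK1, with a slope lower by 0.040 log2 per hour in shZNF598 cells (SE 0.018, edgeR adjusted p = 0.85). PGAM1 differed by -0.028 (SE 0.018), or by -0.0435 without shControl 0 h replicate 2, and ALDOA by 0.012 (SE 0.027), which were within 2 SE of 0. For GAPDH the difference was -0.00042 log2 per hour, and its interval of 2 SE ran from -0.061 to 0.060. Over all 10 enzymes the intervals of 2 SE reached from -0.077 to 0.066 log2 per hour.

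The levels gave no called difference either. At 0 h, 0 of the 10 enzymes were called between the shRNAs (edgeR and DESeq2), against 0.407% of all transcripts tested. The intervals of 2 SE at 0 h reached from -0.53 to 0.42 log2 over the 10 enzymes. PGK1, whose shZNF598 libraries were both higher, had a log2 difference of 0.23 (SE 0.10, edgeR adjusted p = 0.417), the 1 value of 10 with an unadjusted p below 0.05. It was 0.12 without shControl replicate 1 and 0.35 without shControl replicate 2. At 10 h, 0 of 10 were called by either tool, against 3.23% of all transcripts. The values furthest from 0 at 10 h were PGAM1 at -0.26 (SE 0.11), PKM at -0.21 (SE 0.10) and PGK1 at -0.21 (SE 0.10), the 3 with an unadjusted p below 0.05, with edgeR adjusted p from 0.212 to 0.269. Averaged over 0 to 10 h, 0 of 10 were called by either tool although 22.4% of all transcripts were. The 10 averaged differences ran from -0.09 for PKM (SE 0.04, edgeR adjusted p = 0.134) to 0.10 for GAPDH (SE 0.06, edgeR adjusted p = 0.232), and their median of 0.00098 lay beside 0.020 over all transcripts. The averaged call depended on the shControl 0 h pair, since PGAM1 reached -0.13 (edgeR adjusted p = 0.0297) without replicate 1 and GAPDH reached 0.14 (edgeR adjusted p = 0.045) without replicate 2.

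**Figure D3:**
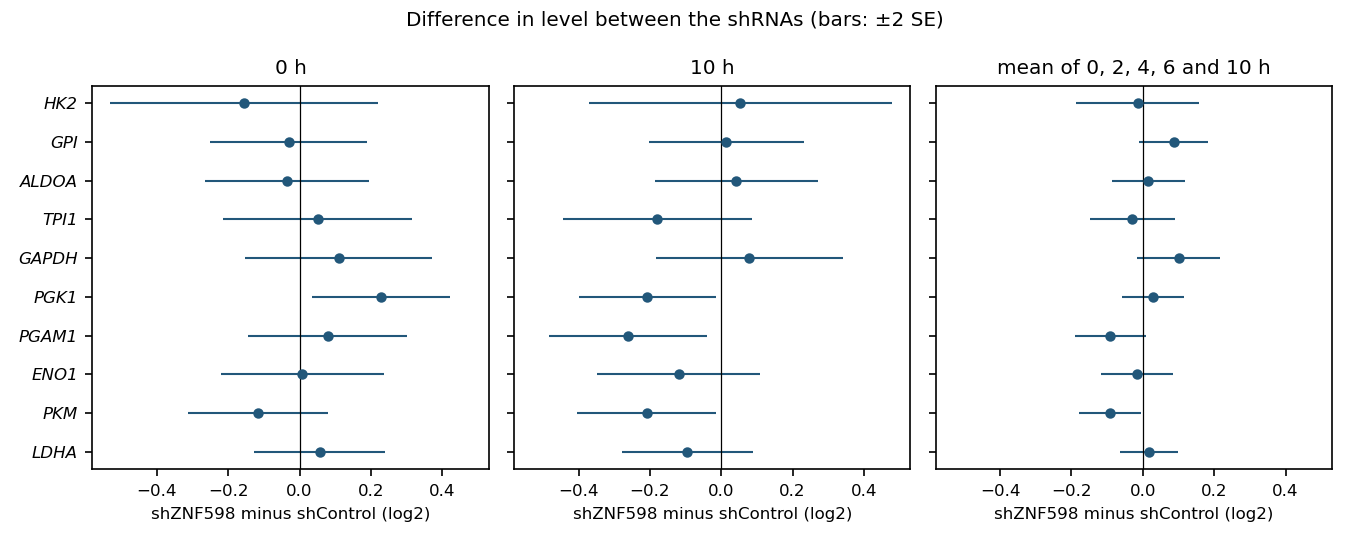
Difference in level, shZNF598 minus shControl in log2, with bars of 2 SE, at 0 h, at 10 h and averaged over 0, 2, 4, 6 and 10 h. No enzyme passed an adjusted p of 0.05; PGK1 is highest at 0 h with 0.23 and PGAM1 lowest at 10 h with -0.26.

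No half-life could be given for any of the 10 under a rule close to the study's but without its spike-in correction, a fit of log2 fold change on time with an R² above 0.9 and a half-life of at most 24 h in both shRNAs, while 18.9% of all transcripts tested passed it. The 9 rising enzymes had no negative slope to convert. HK2 gave 22.3 h in shControl cells from the window of 0 to 4 h (R² 0.999) and 12.3 h in shZNF598 cells from the window of 0 to 10 h (R² 0.755), and the second value failed the R² minimum. These are apparent half-lives relative to the bulk.

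The PKM row for M2 exceeded the row for M1 in all 22 libraries. The M2 row had been chosen for its highest mean count, so an excess over other PKM rows follows largely from that choice. Reads from shared exons are counted in both rows. The excess is the M2 row minus the M1 row, a net difference. It sets reads in the M2 exon against reads in the M1 exon and takes in a first exon of different extent. Which of these exons moved over the chase was not tested. The excess was 1124 and 1457 counts in the shControl 0 h libraries and 4137 and 3405 at 10 h. As a share of the M2 row it was 7.22% to 8.31% in the 12 libraries from 0 to 4 h and 8.70% to 9.79% in the 8 libraries at 6 and 10 h, without overlap. The single 24 h libraries had 8.48% in shControl and 10.7% in shZNF598 cells, outside the range at 6 and 10 h on either side. The 4 libraries at 0 h had 7.76 ± 0.45% and the 4 at 10 h had 9.48 ± 0.21% (SD, exact permutation test, two-sided, p = 0.0286, the smallest that 4 against 4 allows). This comparison was chosen after the values were seen. The rise was seen in both shRNAs, from 7.53 ± 0.44% to 9.46 ± 0.30% in shControl and from 7.98 ± 0.46% to 9.51 ± 0.19% in shZNF598 (SD, n = 2). Whether read coverage along the transcript moved with time was not tested.

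**Figure D4:**
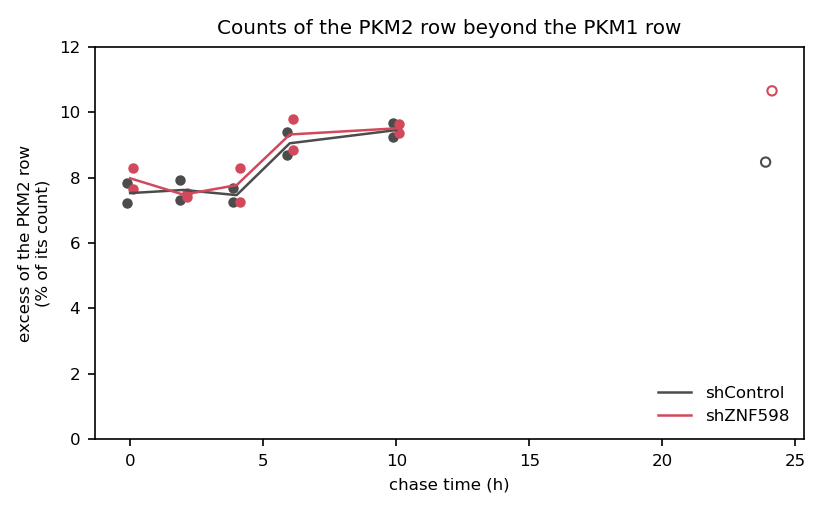
Excess of the PKM2 row over the PKM1 row as a percent of the PKM2 row against chase time in hours, with libraries as points, lines through the means of 2 and open points for the 24 h libraries. The 12 libraries from 0 to 4 h lie at 7.22% to 8.31% and the 8 at 6 and 10 h at 8.70% to 9.79%.

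Copies of these genes and other repeated sequence in the genome limit how far a row stands for 1 locus. Of the 50-base windows in the PGAM1 transcript, 90.7% were also found elsewhere in hg38. The share was 32.4% for TPI1, 24.3% for GAPDH, 19.5% for LDHA, 15.5% for HK2, 9.62% for GPI, 8.34% for PGK1, 4.34% for PKM, 3.46% for ENO1 and 0.733% for ALDOA. A share does not count gene copies alone. The most repeated window lay at 13497 other loci for PGK1 and at 9025 for GPI, and GPI had 0 retrocopy rows. Since the study kept reads with 1 locus, PGAM1 and PGAM4 are reported as uncertain. PGAM4, an intronless copy listed as protein coding, had a slope of 0.066 log2 per hour in shControl cells, near the 0.073 of PGAM1. All retrocopy rows of a gene together had counts equal to 37.8% of the member row for TPI1, 27.8% for PGAM1, 17.5% for LDHA, 17.4% for GAPDH and 7.31% or less for the other 6. These rows were looked at after their values were seen. Among rows with at least 1 CPM, of which some belong to the same retrocopy, slopes in shControl cells ran from 0.141 to 0.304 log2 per hour for GAPDH copies. They ran from 0.165 to 0.218 for TPI1 copies, from 0.233 to 0.236 for PGK1 copies and from 0.110 to 0.113 for ENO1 copies. Copies of LDHA had 0.032 to 0.047, copies of PGAM1 -0.031 to 0.091, and the PKM copy 0.159. TPI1P1, a TPI1 retrocopy, went from 65.4 ± 14.3 CPM at 0 h to 227 ± 6.2 CPM at 10 h in shControl cells (mean ± SD, n = 2).

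Sequence features that the choice of members did not use were compared with 10616 protein-coding genes. The 10 transcripts had a median of 67.3% G or C at the third codon position, beside 56.9%, and a median 3′UTR of 593.5 nt, beside 1455 nt. ATTTA, read on the transcript strand, was found in the 3′UTR of 5 of the 10 (6 copies in PGK1, 5 in HK2, 2 in GPI and 1 each in ALDOA and PGAM1), beside 75.1% of 10600 3′UTRs of any length. Among 3′UTRs of 1000 to 3000 nt, the range that holds HK2 with 2418 nt and GPI with 2377 nt, 88.8% had the pentamer. HK2 had 2.07 copies per kb of 3′UTR and PGK1 1.73, near the median of 1.78. A link between this density and the slopes of the members was not tested. TTATTTATT, which contains ATTTA, was in none of the 10 and in 9.86% of 3′UTRs. Across genes, the slope in shControl cells had a Spearman rho of -0.286 with 3′UTR length, -0.143 with ATTTA per kb and 0.077 with GC at the third position, given as a description over genes that share the same libraries. The HK2 features come from a newer version of the transcript, 5626 nt long, than the 5772 nt in the files.

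The list of other glycolytic enzymes and isoenzymes also held PGAM5, which is not an enzyme of the pathway. Of the 23 genes in the list 12 passed 1 CPM, and in shControl cells 7 had a called positive slope and 3 a called negative one (6 and 3 in shZNF598 cells). Over all transcripts tested the shares were 33.5% positive and 40.8% negative in shControl cells, and 32.7% and 38.5% in shZNF598 cells. LDHB, the lactate dehydrogenase subunit of aerobic tissues, rose with 0.220 log2 per hour (SE 0.008), from 173 ± 2.9 CPM at 0 h to 778 ± 46.8 CPM at 10 h (mean ± SD, n = 2). It was higher per kilobase at 0 h than LDHA, with 112 ± 1.9 against 68.6 ± 3.9 CPM per kb, and its slope was also the steeper. ALDOC, the brain aldolase, had a slope of 0.213 (SE 0.017). The negative slopes were those of BPGM, which makes 2,3-bisphosphoglycerate, at -0.209 (SE 0.018), ADPGK, an ADP-dependent glucokinase, at -0.126 (SE 0.020), and PGAM5, a mitochondrial phosphatase with a mutase-like name, at -0.066 (SE 0.014). HK1, the hexokinase of most tissues, was higher per kilobase than HK2 at 0 h, with 9.78 ± 0.83 against 1.19 ± 0.27 CPM per kb in shControl cells. Its slope of 0.020 log2 per hour (SE 0.014, edgeR adjusted p = 0.188) did not pass the test, in shZNF598 cells neither (0.029, edgeR adjusted p = 0.067).

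**Figure D5:**
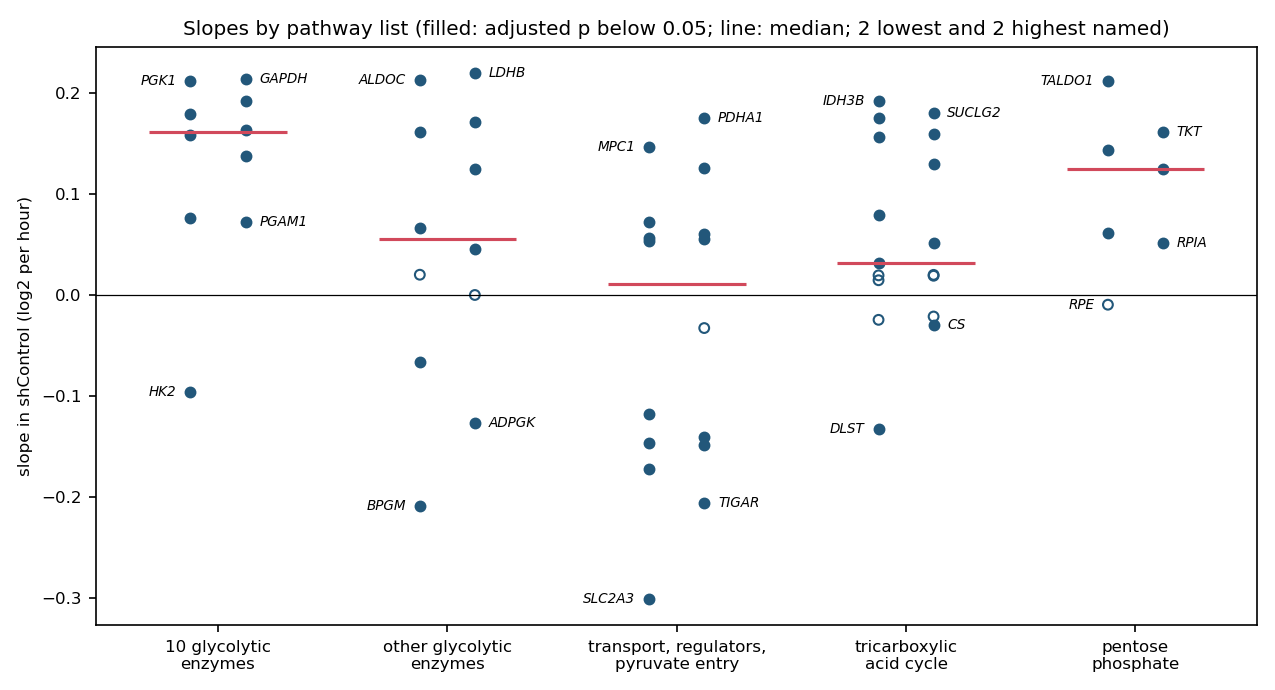
Slope in shControl in log2 per hour for the 10 enzymes and 4 lists of related genes, filled where the adjusted p was below 0.05, with a line at the median and the 2 lowest and 2 highest genes of each list named. The medians are 0.161 for the 10 enzymes, 0.056 for other glycolytic enzymes with PGAM5, 0.011 for transport and regulators, 0.032 for the tricarboxylic acid cycle and 0.125 for the pentose phosphate pathway.

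Genes of transport, regulation and pyruvate entry lay on both sides of 0. Of 16 tested, 8 rose and 7 fell in shControl cells (6 and 7 in shZNF598 cells), beside 33.5% and 40.8% of all transcripts. Those that fell included the glucose transporter SLC2A3 with -0.301 log2 per hour (SE 0.023), the fructose bisphosphatase-like TIGAR with -0.205 (SE 0.039) and PFKFB3, which makes the activator fructose 2,6-bisphosphate, with -0.172 (SE 0.022). Those that rose included PDHA1 of the pyruvate dehydrogenase complex with 0.175 (SE 0.010) and the mitochondrial pyruvate carrier MPC1 with 0.147 (SE 0.011). Of the 7 pentose phosphate enzymes 6 rose and 0 fell in shControl cells (5 and 1 in shZNF598 cells), led by TALDO1, a transaldolase, with 0.212 (SE 0.017) and TKT, a transketolase, with 0.162 (SE 0.015). Of 17 tricarboxylic acid cycle genes 9 rose and 2 fell in shControl cells (7 and 3 in shZNF598 cells). IDH3B led with 0.192 (SE 0.014), and DLST of the oxoglutarate dehydrogenase complex fell at -0.133 (SE 0.018). HK2 shared the negative sign of the 7 transport and regulation genes that fell in shControl cells, a sign called for 40.8% of all transcripts.

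Some of these neighbours had called differences in level between the shRNAs, averaged over 0 to 10 h, beside 22.4% of all transcripts. Called slope differences numbered 0, against 0.116% of all transcripts tested. At an unadjusted p below 0.05 (edgeR) there were 2 of 12 other glycolytic enzymes and 3 of 16 regulators and transport genes. For the tricarboxylic acid cycle there were 3 of 17 and for the pentose phosphate pathway 0 of 7, beside 5.53% of all transcripts. SLC2A3 was lower in shZNF598 cells at 0 h, with 3.01 ± 0.22 against 5.18 ± 0.17 CPM (mean ± SD, n = 2, log2 difference -0.78, edgeR adjusted p = 0.0135), and -0.93 averaged over 0 to 10 h (SE 0.09). SLC2A1, the common glucose transporter, differed by 0.28 averaged over 0 to 10 h (SE 0.05) in the other direction. The line markers NEFM, KRT8 and VIM also differed, as given above, and their part in these differences was not tested. Averaged over 0 to 10 h, 2 of 12 other glycolytic genes were higher in shZNF598 cells (ENO2, the neuronal enolase, by 0.33 and ADPGK by 0.18 log2) and 3 were lower (ALDOC by -0.19, BPGM by -0.17 and PFKM, the muscle phosphofructokinase, by -0.15). Of 16 transport and regulation genes 2 were higher and 5 lower, and of 17 tricarboxylic acid cycle genes 3 were higher, among them DLST at 0.25, and 3 lower, among them OGDH at -0.24. None of the 7 pentose phosphate genes was called in the average. At 10 h the called differences were all lower in shZNF598 cells, with MPC1 at -0.46, DLAT at -0.42 and PDHA1 at -0.40 in pyruvate entry and SUCLA2 at -0.48 and FH at -0.37 in the cycle (edgeR adjusted p from 0.0119 to 0.0498). Over all transcripts 3.23% were called at 10 h, and these also leaned lower, with 1933 lower and 635 higher.

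The genes outside these lists whose mean log2 level over the 10 groups of shRNA and chase time was most like the mean of the 10 enzymes were the peroxiredoxin PRDX4 (Pearson r = 0.999), the phosphatase scaffold PPP2R1A (r = 0.999), the proteasome subunit PSMB3 (r = 0.998), the transcript ENST00000391865.7, which has no name in the annotation used (r = 0.998), and the translation factor EIF5A (r = 0.998), among 5476 candidates. Their shControl slopes ran from 0.167 for EIF5A to 0.248 log2 per hour for PRDX4. These groups share libraries and scaling, so r is a description. Each rising enzyme correlated with the mean of the other 9 with r of 0.936 (PGAM1) to 0.996 (ENO1), and HK2 with r = -0.977.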

How the data were processed

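BRIC-Seq counts were analysed for 22 libraries. Per the labels and the study's methods, the authors trimmed reads, removed noncoding RNA, aligned the rest to hg38 with STAR 2.7.0a at 1 locus per read and counted them per GENCODE transcript, and deposited 1 raw count per transcript. A read is counted in each isoform it overlaps. The BrU spike-ins were not used here. Transcripts were named with a newer GENCODE release on the same build (92.2% matched with version, 98.4% without).

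Transcripts averaging 1 CPM or more from 0 to 10 h were fitted with edgeR 4.0.16 in R 4.3.3 (TMM, quasi-likelihood test, Benjamini-Hochberg over all 79513), as 1 mean per group for levels and as shRNA by hours for slopes. SE is the estimate divided by the square root of F. DESeq2 1.42.0 gave the alternative test and the fold changes behind half-lives. The functions were tested on simulated data. Named genes are all members, up to 3 per list and comparison with the largest called change, and the 5 most alike profiles, and any other gene was named after its values were seen. The members and lists were chosen with earlier results of these data known. Total counts set the precision given by each SE. Values of some list genes are not reported here.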

Additional observations from a re-analysis of the deposited data

How the results depend on the processing

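The counts of called members stayed within 1.5 times under other scalings, filters, tests, 1 row per gene, the second-highest coding transcript and chase windows of 0 to 6 and 2 to 10 h, and ZNF598 kept a log2 difference of -3.106 to -3.001 without any 1 library. Adding the single 24 h libraries lowered the called slopes from 10 to 3 in shControl and 2 in shZNF598 cells, and LDHA turned to -0.0092 and -0.024 log2 per hour. Library totals turned the shZNF598 slopes of LDHA and PGAM1 to -0.0065 and -0.017. Without 1 library the averaged level gave 0 to 1 called members, and the ALDOA slope difference ranged from -0.010 to 0.0285 and that of PGAM1 from -0.0435 to -0.0193. A mean of 10 CPM as the filter dropped HK2 and left PGAM1 uncalled in both shRNAs (0.026 and 0.0054 log2 per hour) and LDHA in shZNF598 (0.017). Only HK2 in shControl and PGAM1 in shZNF598 lost their call over 0 to 6 h. The cause was not tested.

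Over all transcripts, the called slope differences were 92, against 503 with DESeq2, 141 above 10 CPM, 46 without a filter, 15 of 14999 with 1 row per gene, 37 with library totals, 22 over 0 to 6 h, 52 over 2 to 10 h and 0 over 0 to 24 h (3203 at an unadjusted p below 0.05). The called 0 h differences were 324, against 548 with DESeq2, 788 without a filter, 183 above 10 CPM, 95 with 1 row per gene, 11 with the 0 h libraries alone and 49 to 1899 without 1 library. At 10 h they were 2568, against 501 with 1 row per gene and 802 to 3993 without 1 library. The called slopes were 59119 and 56620, against 22969 and 20829 over 0 to 24 h. Same-numbered libraries of the 2 shRNAs correlated with r from -0.369 to 0.478, so the numbers do not pair them; the replicate block called 80 slope differences and 398 at 0 h, and called 10, 10 and 0 members for the slopes in shControl, in shZNF598 and their difference. No half-life of a member passed under 4 other settings. Levels below 1 CPM were not tested, and the size of the slope differences that could be seen is limited by 2 libraries per group.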
